A study of Rattus norvegicus with 30 samples.

Results

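The 9 genes described here are known direct targets of the glucocorticoid receptor and were followed in rat lung after severe acute pancreatitis (SAP), with and without the glucocorticoid DEX or the plant anthraquinone emodin. They were Fkbp5, Tsc22d3, Zbtb16, Klf9, Sgk1, Dusp1, Pdk4, Errfi1 and Ddit4, found in the tables by symbol. All 9 were present among the 22914 genes counted and all 9 were among the 15934 genes with enough reads to be tested. Tsc22d3 occupied 2 rows, and the row with more reads was taken as the gene.

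RNA-seq was performed on lung tissue from 30 male Sprague Dawley rats aged 8 weeks, 3 in each of 10 groups, fasted and operated under pentobarbital. A portion of the lung was fixed, saline was flushed through the pulmonary artery, and the remaining portion was frozen. In Sham-6h and Sham-24h the pancreas was only turned, and Con-6h and Con-24h had sterile saline in the biliopancreatic duct. In SAP-6h and SAP-24h, DEX-6h and DEX-24h, and Emo-6h and Emo-24h, 5.0% sodium taurocholate at 0.1 mL per 100 g of body weight was infused instead, a bile salt that inflames the pancreas and injures the lung secondarily. DEX was given into a vein at 10 mg/kg and emodin into the stomach, each 2 and 12 hours after the operation, so that rats examined at 6 hours had received 1 dose and those at 24 hours had received 2. The emodin dose is 40 mg/kg in the treatment protocol and 10 mg/kg in the sample descriptions. Rats not given a drug received its vehicle. No group received DEX or emodin without taurocholate, no group was left without an operation, and the animals at 6 and 24 hours were different rats. Steroid released by the rats' own adrenal glands could have been part of any group, and its blood level was not analysed here.

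The glucocorticoid receptor, encoded by Nr3c1, is held in the cytoplasm by heat shock chaperones until it binds a steroid. It then enters the nucleus and binds palindromic DNA elements, often far from the genes it induces. In lung, this programme is known for restraining inflammatory signalling and for acting on epithelial, endothelial and immune cells alike. The 9 genes have different roles. Fkbp5 encodes a co-chaperone that lowers the steroid affinity of the receptor, and so acts in a short feedback loop. Tsc22d3 (also called GILZ) and Dusp1, a phosphatase of p38 and JNK kinases, limit inflammatory signalling. Zbtb16 and Klf9 are transcription factors. Sgk1 is a kinase that promotes sodium uptake through the epithelial sodium channel. Pdk4 inhibits pyruvate dehydrogenase and so spares glucose, Errfi1 inhibits the epidermal growth factor receptor, and Ddit4 (REDD1) inhibits mTORC1.

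The sequence next to the start of these genes is shown first, because members that move together might share elements there. RefSeq promoter windows (GRCr8, 250 bases before the start and 50 bases from it on) were matched for 8 of the 9 genes, in 12 windows. Tsc22d3 and Sgk1 had 3 windows each and the other 6 genes 1 each. The gene without a window was Zbtb16. The letters searched on both strands were the full receptor element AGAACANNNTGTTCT, a looser form GNACANNNTGTNC, the half-sites TGTTCT and TGTCCT, the cyclic AMP response element TGACGTCA and the E-box CACGTG, where N is any base. The half-site TGTTCT is part of the full element. Capitals mark matches, each window is written 5′ to 3′ on the strand of the gene, and the half-site TGTCCT appears as AGGACA where it lies on the other strand. The Fkbp5 window is chr20:6543506-6543805 (minus strand), the one of the 3 Sgk1 windows that holds a match is chr1:24804782-24805081 (minus strand), that of Errfi1 is chr5:166606591-166606890 (plus strand) and that of Dusp1 is chr10:17184603-17184902 (plus strand). Fkbp5 is shown as a gene that differed strongly between the drugs and has no match, Sgk1 and Errfi1 as genes with a half-site, and Dusp1 as the gene with the other elements.
Fkbp5: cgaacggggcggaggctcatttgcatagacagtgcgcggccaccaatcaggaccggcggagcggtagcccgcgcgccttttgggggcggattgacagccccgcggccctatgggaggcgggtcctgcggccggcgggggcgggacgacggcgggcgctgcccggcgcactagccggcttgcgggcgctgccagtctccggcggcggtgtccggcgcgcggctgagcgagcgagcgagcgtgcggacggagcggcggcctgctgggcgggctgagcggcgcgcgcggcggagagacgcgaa
Sgk1: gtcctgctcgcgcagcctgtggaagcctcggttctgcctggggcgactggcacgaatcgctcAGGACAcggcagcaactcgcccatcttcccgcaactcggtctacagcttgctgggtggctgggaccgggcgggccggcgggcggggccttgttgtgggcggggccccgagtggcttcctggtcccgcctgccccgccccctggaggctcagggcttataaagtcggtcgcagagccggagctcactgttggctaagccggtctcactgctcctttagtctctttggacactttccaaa
Errfi1: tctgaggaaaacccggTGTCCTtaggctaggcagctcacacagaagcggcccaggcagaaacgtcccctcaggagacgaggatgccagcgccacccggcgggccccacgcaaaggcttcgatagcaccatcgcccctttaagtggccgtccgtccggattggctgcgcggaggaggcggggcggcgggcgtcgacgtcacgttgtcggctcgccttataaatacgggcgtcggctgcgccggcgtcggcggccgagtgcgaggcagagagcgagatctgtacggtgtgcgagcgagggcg
Dusp1: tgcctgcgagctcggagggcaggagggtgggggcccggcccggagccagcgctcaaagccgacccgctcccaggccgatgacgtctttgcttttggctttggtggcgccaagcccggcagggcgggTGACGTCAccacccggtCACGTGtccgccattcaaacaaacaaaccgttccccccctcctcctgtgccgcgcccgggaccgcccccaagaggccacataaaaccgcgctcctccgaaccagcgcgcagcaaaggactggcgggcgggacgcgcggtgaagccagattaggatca

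None of the 12 windows held the full element, which 0.0149% of all 33469 windows hold, or the looser form, which 0.439% hold. The half-site TGTTCT was in 0 of the 12 windows and in 20.7% of all windows. The half-site TGTCCT was in 3 of the 12, namely 1 of the 3 Sgk1 windows and those of Errfi1 and Ddit4, against 20.4% of all windows. It began 188 bases before the start in Sgk1, 234 bases before it in Errfi1 and 24 bases after the first base in Ddit4. The Dusp1 window alone held TGACGTCA, 124 bases before the start, and CACGTG, 107 bases before it, which 1.83% and 6.42% of all windows hold. A match is a description of letters, and a window without one says nothing of receptor binding elsewhere.

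Levels are given in FPKM (fragments scaled by transcript length and library size), which can be compared between genes. Averaged over the 30 libraries, Tsc22d3 was at 322 FPKM, Dusp1 at 254, Ddit4 at 85.4, Fkbp5 at 82.1, Errfi1 at 71.9, Klf9 at 57.4, Sgk1 at 35.9, Zbtb16 at 23.2 and Pdk4 at 22.4. Reads per library ranged from 328 for Pdk4 to 42635 for Dusp1 over the 9 genes. The highest library exceeded the lowest 9.85-fold for Fkbp5, 9.74-fold for Pdk4 and 9.24-fold for Errfi1, but only 3.11-fold for Klf9. The second row of Tsc22d3 had 68 to 363 reads and 6.08 to 27.5 FPKM, and its reads cannot be separated with certainty from those of the main row.

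**Figure D1:**
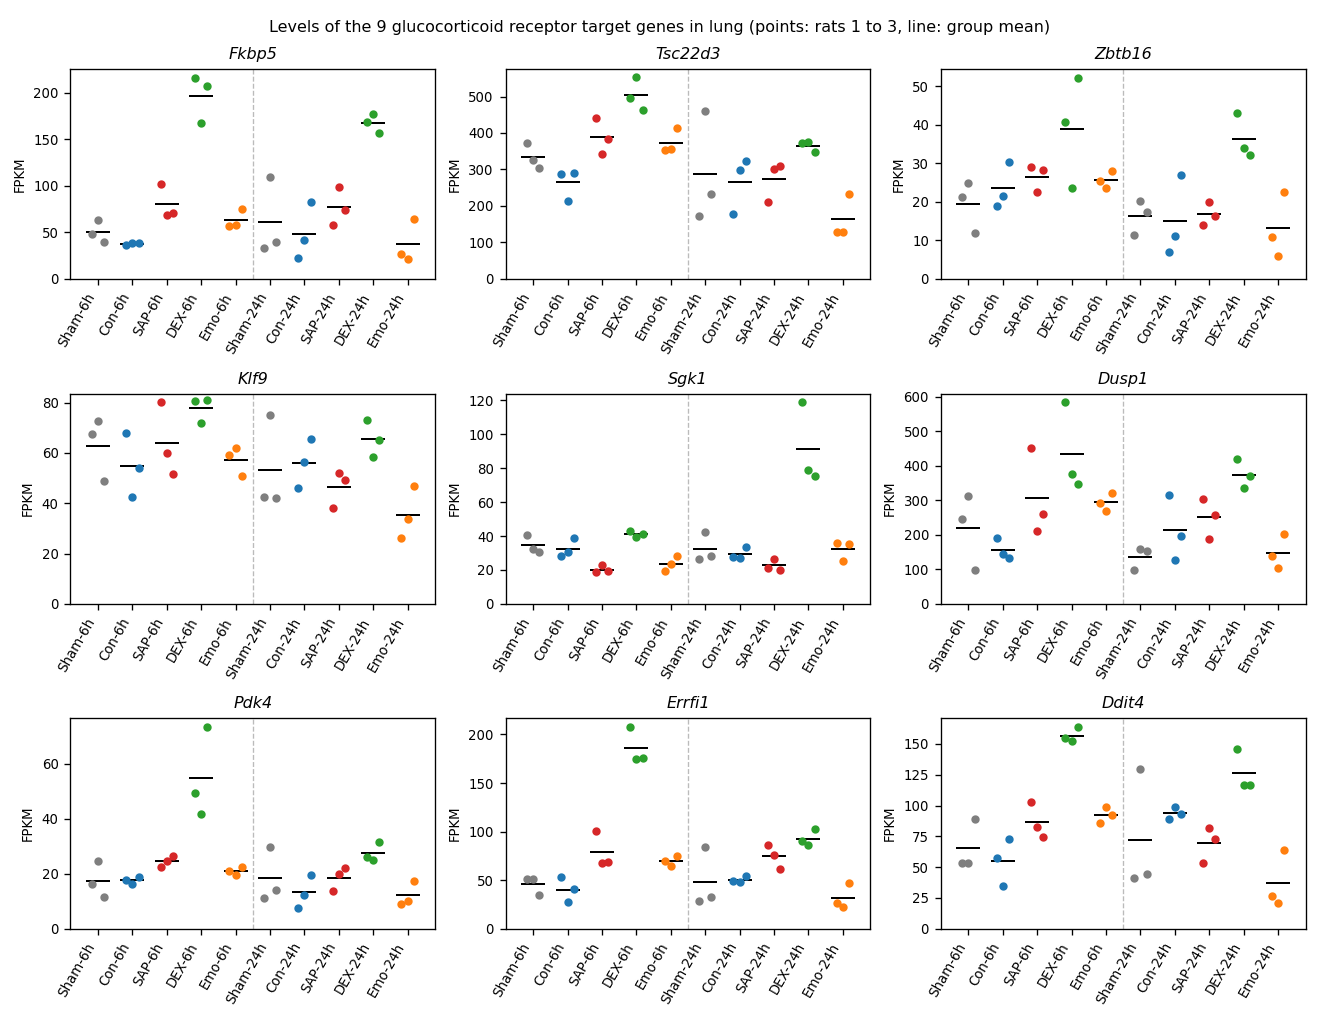
FPKM of each gene (vertical axis, linear from 0) in the 10 groups (horizontal axis, 6 hours left and 24 hours right of the dashed line), with a point per rat and a line at the group mean. DEX-6h has the highest mean for 8 of the 9 genes, and Sgk1 is the exception, with its highest mean in DEX-24h.

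A DEX group had the highest mean of all 10 groups for every gene. DEX-6h was highest for 8 genes and DEX-24h for Sgk1. The lower end of the order was Emo-24h for 7 genes, Sham-24h for Dusp1 (137 FPKM) and SAP-6h for Sgk1 (20.2 FPKM). Between these ends, neighbouring groups mostly overlapped. The ranges of neighbours in the order of group means were separate between DEX-24h and SAP-6h for Fkbp5 and Zbtb16, between DEX-6h and SAP-6h for Tsc22d3, between DEX-24h and DEX-6h for Sgk1, and between DEX-6h and DEX-24h for Pdk4, Errfi1 and Ddit4. Ddit4 was also separate between DEX-24h and Con-24h, and Errfi1 between Emo-6h and Con-24h. For Klf9 and Dusp1, no pair of neighbours was separate. How many of all genes had a DEX group highest, or separated neighbouring groups in this way, is not given here.

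In Sham and Con rats, which had neither taurocholate nor a drug, most of the genes varied widely between animals. The study reports mild pancreatitis after saline in the duct, as in Con, and therefore took Sham as its control. Fkbp5 was at 48.2, 63.6 and 39.8 FPKM in Sham-6h, 36.3, 38.5 and 38.8 FPKM in Con-6h, 33.6, 109.8 and 39.9 FPKM in Sham-24h and 22.2, 41.4 and 82.7 FPKM in Con-24h. Zbtb16 was at 21.3, 24.8 and 11.8 FPKM in Sham-6h and at 11.3, 20.2 and 17.4 FPKM in Sham-24h. Con-6h was even for Fkbp5, whose coefficient of variation there was 3.59%, while in Sham-24h it was 69.2%. For Ddit4 the coefficient was 70.5% in Sham-24h and 5.63% in Con-24h. Sgk1 and Klf9 were steadier, at 26.3 to 42.4 FPKM and 42.0 to 75.0 FPKM over the 12 Sham and Con rats.

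At 6 hours, 4 hours after the single DEX dose, the comparison with SAP-6h asks what DEX adds in rats with pancreatitis. All 9 genes had a positive log2 fold change, with a median of 0.85 against -0.02 over all genes tested. In 6 of the 9, every DEX-6h rat lay above every SAP-6h rat, as 8.75% of all genes tested did. Sgk1 was the only one called as a differentially expressed gene (DEG), defined by an adjusted p under 0.05 (edgeR's quasi-likelihood test, Benjamini-Hochberg adjustment over 15934 genes) and a change of at least 2-fold. DEGs made up 0.515% of all genes tested in this comparison. At an unadjusted p under 0.05 there were 5 members, against 12.1% of all genes.

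Sgk1 was at 43.0, 39.3 and 41.0 FPKM in DEX-6h and at 18.6, 22.6 and 19.4 FPKM in SAP-6h. The groups were far apart and each was tight. The log2 fold change was 1.02 (SE 0.20, adjusted p = 0.0158, edgeR).
Fkbp5 was at 216, 167 and 208 FPKM in DEX-6h and at 103, 68.4 and 70.4 FPKM in SAP-6h. Its log2 fold change of 1.28 was larger than that of Sgk1, but its SE of 0.43 was too, and the adjusted p was 0.176 in edgeR. Errfi1 was at 207, 175 and 176 FPKM against 100.1, 67.8 and 69.0 FPKM, a log2 fold change of 1.23 (SE 0.34, adjusted p = 0.0871, edgeR). In these genes too, the 3 DEX rats lay above the 3 SAP rats without overlap, and replicate 1 of SAP-6h was the highest of its group.

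Pdk4 was at 49.3, 41.6 and 73.1 FPKM in DEX-6h and at 22.4, 24.4 and 26.4 FPKM in SAP-6h, a log2 fold change of 1.15 (SE 0.34, adjusted p = 0.114, edgeR). Since heart muscle expresses Pdk4 strongly, the summed FPKM of 9 heart muscle markers was set beside it. That sum was 300.2, 37.2 and 368 FPKM in replicates 1, 2 and 3 of DEX-6h and 8.27, 226 and 230.3 FPKM in those of SAP-6h. The part of heart muscle RNA in the difference was not tested. Ddit4 was at 155, 152 and 164 FPKM against 103, 82.7 and 74.7 FPKM (log2 fold change 0.85, SE 0.39, adjusted p = 0.384, edgeR). Tsc22d3, although separate between the groups, differed little in size, with 497, 555 and 464 FPKM against 442, 342 and 383 FPKM and a log2 fold change of 0.37 (95% interval -0.23 to 0.97). Its second row was at 18.3, 21.3 and 27.5 FPKM in DEX-6h and at 14.5, 11.7 and 13.2 FPKM in SAP-6h, without overlap. Zbtb16, Klf9 and Dusp1 overlapped between the groups, with log2 fold changes of 0.53, 0.27 and 0.49. Zbtb16 varied most among the DEX-6h rats, at 40.6, 23.6 and 52.1 FPKM, against 29.0, 22.5 and 28.2 FPKM in SAP-6h. Klf9 was at 80.6, 72.0 and 80.9 FPKM against 80.3, 59.9 and 51.5 FPKM, and Dusp1 at 585, 375 and 346 FPKM against 451, 212 and 261 FPKM. In all 3 genes, 1 rat set the overlap, replicate 2 of DEX-6h for Zbtb16 and replicate 1 of SAP-6h for the others. By log2 fold change among the 15934 genes, Fkbp5 ranked 182, Errfi1 201, Pdk4 232, Sgk1 316 and Ddit4 501.

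The call of Sgk1 was lost in 4 of 6 fits that each left out 1 library (DEX-6h replicate 1 or any SAP-6h rat), with adjusted p from 0.0325 to 0.0900 over the 6 fits. In the other direction, 4 members were called when only the 6 libraries of these groups were fitted (Fkbp5, Pdk4 and Errfi1 in addition), and 3 were called by DESeq2 (Pdk4 and Errfi1 in addition). Shares of all genes are given for the main fit only. The share called in these other fits, or in any alternative fit below, is not given here.

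At 24 hours, 12 hours after the second dose, Sgk1 stood further out. It was at 119, 79.0 and 75.6 FPKM in DEX-24h and at 21.3, 26.5 and 20.2 FPKM in SAP-24h, so that the lowest DEX rat had more than any SAP rat by a wide margin. The log2 fold change was 1.92 (SE 0.21, 95% interval 1.49 to 2.35, adjusted p = 2.2e-05, edgeR), a 3.78-fold rise, and by p Sgk1 ranked 2 of all genes tested. It was the only member called of 9, in a comparison where 3.73% of all genes were DEGs. The call held in all 6 fits without 1 library.

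The other members were again all higher in mean in DEX-24h, and the median log2 fold change of the 9 was 0.49. In 8 of the 9 every DEX-24h rat lay above every SAP-24h rat, as 16.4% of all genes tested did. Fkbp5 was at 169, 177 and 157 FPKM against 57.7, 99.2 and 73.9 FPKM (log2 fold change 1.04, SE 0.43, adjusted p = 0.142, edgeR). Zbtb16 was at 43.1, 33.9 and 32.2 FPKM against 14.1, 20.0 and 16.4 FPKM (log2 fold change 1.03, SE 0.42, adjusted p = 0.140, edgeR). For both, the fit to the 6 libraries of these groups alone gave a call, with adjusted p of 0.0474 for Fkbp5 and 0.0386 for Zbtb16 in edgeR.
Ddit4 was at 146, 117 and 117 FPKM in DEX-24h against 53.6, 81.4 and 73.1 FPKM in SAP-24h, and the difference (log2 fold change 0.79) did not pass the test. Errfi1, clearly separate at 6 hours, overlapped at 24 hours, with 90.0, 85.9 and 102 FPKM against 86.5, 75.8 and 61.9 FPKM and a log2 fold change of 0.21 (95% interval -0.48 to 0.91). Pdk4 was at 25.9, 24.8 and 31.3 FPKM against 13.7, 19.7 and 21.9 FPKM (log2 fold change 0.49). Klf9 was at 73.3, 58.4 and 65.0 FPKM against 37.9, 52.2 and 49.1 FPKM (0.41), and Tsc22d3 at 374, 375 and 348 FPKM against 211, 300.1 and 310.1 FPKM (0.34). Dusp1 had a log2 fold change of 0.48. These 4 were separate between the groups without passing the test.

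Unsorted lung tissue was measured, so fewer cells of a type and less RNA per cell cannot be told apart in any of these values. The summed level of 10 neutrophil markers was 4545 to 16334 FPKM in SAP-24h and 1036 to 2987 FPKM in DEX-24h. That of 7 B cell markers was 31.9 to 54.3 and 14.04 to 19.1 FPKM, and 4 of these 7 markers fell as DEGs. The sum of 7 endothelial markers was 938 to 1007 FPKM in SAP-24h and 1037 to 1207 FPKM in DEX-24h. At 6 hours, none of the neutrophil, T cell or B cell markers was a DEG between DEX-6h and SAP-6h, but the sums of 3 lists were lower in every DEX-6h rat than in every SAP-6h rat. The T cell sum was 33.7 to 48.3 FPKM in DEX-6h and 52.2 to 63.5 FPKM in SAP-6h, the macrophage and monocyte sum 254 to 359 and 368 to 408 FPKM, and the red blood cell sum 769 to 6198 and 6273 to 9532 FPKM. The part of these shifts in the member values was not tested.

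A change of the DEX effect with time was tested as an interaction in the same model. None of the 9 members passed (0.138% of all genes were DEGs), and 2 had an unadjusted p under 0.05, against 13.6% of all genes tested. For Sgk1 the log2 effect of DEX was larger at 24 hours by 0.90 (95% interval 0.31 to 1.49, adjusted p = 0.170, edgeR). For Errfi1 it was smaller at 24 hours, with a difference of -1.01 (95% interval -1.999 to -0.03, adjusted p = 0.358, edgeR). The intervals of the other 7 all included 0, and were as wide as -0.72 to 1.72 for Zbtb16.

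Between the DEX groups themselves, Sgk1 rose from DEX-6h to DEX-24h with a log2 fold change of 1.17 (SE 0.20, adjusted p = 0.000444, edgeR), and was the only DEG among the 9, in a comparison where 7.14% of all genes were DEGs. Without replicate 1 of DEX-24h, the rat at 119 FPKM, its log2 fold change was 0.93, under 2-fold. Pdk4 and Errfi1 went the other way, with log2 fold changes of -0.97 (adjusted p = 0.0372) and -0.99 (adjusted p = 0.0343) in edgeR. Both therefore passed the adjusted p but not the 2-fold limit, and 25.9% of all genes passed that p. Errfi1 was a DEG with RLE scaling and by DESeq2, and Pdk4 was one without replicate 2 of DEX-6h. Pdk4 was at 25.9, 24.8 and 31.3 FPKM in DEX-24h and Errfi1 at 90.0, 85.9 and 102 FPKM, below all 3 DEX-6h rats in each case. Tsc22d3 and Ddit4 were also lower in every DEX-24h rat, so that 4 of the 9 members were lower without overlap. The share of all genes that separated in this way is not given here. Fkbp5 overlapped between the DEX groups, with a log2 fold change of -0.21 (95% interval -1.09 to 0.66). In the same comparison 7 of 8 T cell markers and 7 of 7 B cell markers fell as DEGs, and the endothelial sum was 1453 to 1599 FPKM in DEX-6h and 1037 to 1207 FPKM in DEX-24h. Their part was not tested.

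**Figure D2:**
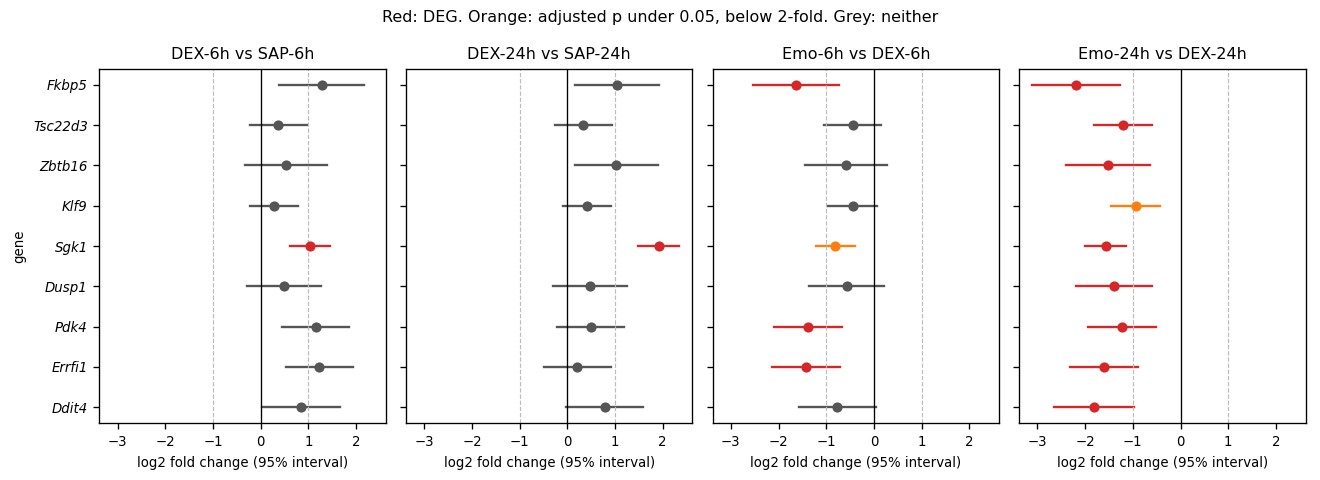
log2 fold change with its 95% interval (horizontal axis) for the 9 genes (vertical axis) in 4 comparisons, each the first group minus the second, with dashed lines at 2-fold. Points lie right of 0 for all 9 genes in both DEX comparisons with SAP, and left of 0 for all 9 in both comparisons of emodin with DEX.

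The same 9 genes were then compared between emodin and SAP. At 6 hours none was a DEG by edgeR, none had an unadjusted p under 0.05 and DESeq2 called none, where 0.0251% of all genes were DEGs and 13.5% had an unadjusted p under 0.05. All 9 overlapped between Emo-6h and SAP-6h, while 11.4% of all genes were higher and 6.48% lower in Emo-6h without overlap. The median log2 fold change was -0.08 and the values ran from -0.36 for Fkbp5 (95% interval -1.24 to 0.52) to 0.22 for Sgk1 (95% interval -0.20 to 0.63). Fkbp5 was at 57.2, 58.1 and 75.0 FPKM in Emo-6h, and Sgk1 at 19.3, 23.6 and 27.9 FPKM. The intervals leave room for changes below 2-fold and, for Fkbp5, for a fall beyond it.

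At 24 hours, 8 of the 9 members had a negative log2 fold change in Emo-24h against SAP-24h, with a median of -0.87 (0.02 over all genes tested). Errfi1 fell and was the only DEG, where 3.19% of all genes were DEGs. It was at 26.1, 22.4 and 46.7 FPKM in Emo-24h, all below the SAP-24h rats, and the log2 fold change was -1.39 (SE 0.34, adjusted p = 0.0179, edgeR). The share of all genes that separated in this way is not given here. The call of Errfi1 was lost in 3 of the 6 fits without 1 library (Emo-24h replicate 1 or 2, or SAP-24h replicate 1), and in the fit to these groups alone (adjusted p = 0.126, edgeR). DESeq2 called 3 members, Errfi1, Fkbp5 (log2 fold change -1.17, adjusted p = 0.0404) and Ddit4 (-1.05, adjusted p = 0.0483). An unadjusted p under 0.05 was found for 7 members, against 26.3% of all genes.
Fkbp5 (log2 fold change -1.15), Ddit4 (-1.03), Dusp1 (-0.91), Tsc22d3 (-0.87) and Pdk4 (-0.73) all overlapped with SAP-24h in at least 1 rat. In Emo-24h, Fkbp5 was at 26.7, 21.9 and 64.8 FPKM, Ddit4 at 26.4, 20.7 and 63.8 FPKM and Tsc22d3 at 128, 130.1 and 233 FPKM. Replicate 3 was high in each case. Without it 4 members were called, Fkbp5, Tsc22d3, Errfi1 and Ddit4. Over the 6 fits without 1 library, the log2 fold change ran from -1.84 to -0.88 for Fkbp5 and from -1.74 to -0.75 for Ddit4. Sgk1 was the exception in sign, at 35.9, 25.5 and 35.1 FPKM, with a log2 fold change of 0.35 (95% interval -0.06 to 0.77). Cell markers moved in this comparison too. The B cell sum was 58.6 to 83.1 FPKM in Emo-24h and 31.9 to 54.3 FPKM in SAP-24h, without overlap. The T cell sum had a median of 64.1 FPKM against 14.9, and the neutrophil sum one of 4536 FPKM against 12524, with overlapping ranges. Their part in the member values was not tested.

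The drugs were also compared directly. The same DEX groups enter here as above, so that these values are not independent of the comparisons of DEX with SAP. At 6 hours, 3 members were lower in Emo-6h as DEGs, where 0.653% of all genes were DEGs in that direction. They were Fkbp5 (log2 fold change -1.64, SE 0.44, adjusted p = 0.0410), Errfi1 (-1.42, SE 0.34, adjusted p = 0.0254) and Pdk4 (-1.38, SE 0.34, adjusted p = 0.0297), all by edgeR. Sgk1 passed the adjusted p at -0.81. Every Emo-6h rat lay below every DEX-6h rat for 8 of the 9, as 9.21% of all genes did, and Zbtb16 overlapped. These calls rested on all 6 libraries, since leaving out any 1 of them left 0 to 1 members called, namely Pdk4 without replicate 2 of DEX-6h, although the log2 fold change of Fkbp5 stayed between -1.79 and -1.55. The sum of heart muscle markers was 18.9 to 179 FPKM in Emo-6h and 37.2 to 368 FPKM in DEX-6h, which touches Pdk4, and its part in the result was not tested.

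At 24 hours the separation was complete. Every Emo-24h rat lay below every DEX-24h rat for all 9 members, as 10.8% of all genes did, and 8 of the 9 were lower as DEGs, where 1.24% of all genes were. The median log2 fold change was -1.52, against 0.01 over all genes tested. Fkbp5 differed most, with 26.7, 21.9 and 64.8 FPKM in Emo-24h against 169, 177 and 157 FPKM in DEX-24h. It was 4.57-fold lower (log2 fold change -2.19, SE 0.44, adjusted p = 0.00332, edgeR). Ddit4 was at 26.4, 20.7 and 63.8 FPKM against 146, 117 and 117 FPKM, 3.52-fold lower (log2 fold change -1.82, SE 0.40, adjusted p = 0.00621, edgeR). Errfi1 was at 26.1, 22.4 and 46.7 FPKM against 90.0, 85.9 and 102 FPKM (log2 fold change -1.60, SE 0.34, adjusted p = 0.00521, edgeR).
The smallest p belonged to Sgk1, at 35.9, 25.5 and 35.1 FPKM against 119, 79.0 and 75.6 FPKM (log2 fold change -1.57, SE 0.21, adjusted p = 8.87e-05, edgeR). Zbtb16 was at 10.8, 5.95 and 22.6 FPKM against 43.1, 33.9 and 32.2 FPKM, a log2 fold change of -1.52. Dusp1 was at 139, 104 and 202 FPKM against 419, 335 and 369.6 FPKM, a log2 fold change of -1.39. Pdk4 (-1.22) and Tsc22d3 (-1.21) completed the DEGs, and Klf9 passed the adjusted p at -0.94 (adjusted p = 0.0197, edgeR). The second row of Tsc22d3 gave -1.06.

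Markers of blood cells moved with this comparison. In Emo-24h against DEX-24h, 7 of 8 T cell markers and 6 of 7 B cell markers were higher as DEGs. The share of all genes that were higher as DEGs in this comparison is not given here. The T cell sum was 18.2 to 73.1 FPKM in Emo-24h and 6.72 to 14.99 FPKM in DEX-24h, and the B cell sum was 58.6 to 83.1 and 14.04 to 19.1 FPKM, with no marker of either list at 0 throughout. The neutrophil sum was 4375 to 6704 FPKM against 1036 to 2987 FPKM, and the red blood cell sum 293 to 1348 FPKM against 1366 to 1677 FPKM. Their part in the member values was not tested. Without 1 library, 4 to 9 members were called. The number was 4 without replicate 1 or replicate 2 of Emo-24h, 5 without replicate 3 of DEX-24h, and 9 without replicate 3 of Emo-24h. Without that last rat the log2 fold changes were -2.89 for Fkbp5, -2.53 for Ddit4 and -2.22 for Zbtb16, each over 1.5 times the fold with it. In the fit to the 6 libraries of these groups alone, Zbtb16 was not called (adjusted p = 0.0809, edgeR).

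SAP was compared with the sham operation, from which it differs by the infusion into the duct as well as by taurocholate, and SAP was not compared with Con here. No member was a DEG at either time by edgeR. At 6 hours 0.22% of all genes were DEGs, 2 members had an unadjusted p under 0.05 (13.1% of all genes) and DESeq2 called 0. At 24 hours 5.0% of all genes were DEGs, again 2 members had an unadjusted p under 0.05 (28.4% of all genes), and DESeq2 called 1, Dusp1.
At 6 hours Sgk1 was at 18.6, 22.6 and 19.4 FPKM in SAP-6h and at 40.4, 32.3 and 30.8 FPKM in Sham-6h. All 3 SAP rats were below all 3 Sham rats, with a log2 fold change of -0.73 (SE 0.20, adjusted p = 0.118, edgeR). Errfi1 lay the other way, at 100.1, 67.8 and 69.0 FPKM against 51.2, 51.2 and 34.9 FPKM (log2 fold change 0.85, SE 0.34, adjusted p = 0.268, edgeR). Fkbp5 was also higher in each SAP-6h rat than in any Sham-6h rat, whose values were 48.2, 63.6 and 39.8 FPKM (log2 fold change 0.73, adjusted p = 0.496, edgeR). At 24 hours Dusp1 was at 305, 188 and 259 FPKM in SAP-24h and at 98.5, 159.8 and 152 FPKM in Sham-24h, without overlap (log2 fold change 1.01, SE 0.38, adjusted p = 0.0812, edgeR). The share of all genes that separated SAP from Sham rats in this way is not given here for either time. Errfi1 was called without replicate 2 of Sham-24h (adjusted p = 0.0118, edgeR), a rat described further on. The T cell sum was 13.9 to 19.1 FPKM in SAP-24h and 51.4 to 73.2 FPKM in Sham-24h, and 6 of 8 T cell markers fell as DEGs. At 6 hours the red blood cell sum was 6273 to 9532 FPKM in SAP-6h and 772 to 3655 FPKM in Sham-6h, and the endothelial sum was 1243 to 1642 FPKM and 1202 to 1210 FPKM. The part of these markers was not tested.

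The DEX groups, which received taurocholate too, were also compared with Sham. In DEX-6h against Sham-6h, 4 members rose as DEGs, where 2.25% of all genes were DEGs in that direction. They were Errfi1 (log2 fold change 2.07, SE 0.35, adjusted p = 0.000788), Fkbp5 (2.01, SE 0.44, adjusted p = 0.00609), Pdk4 (1.69, SE 0.35, adjusted p = 0.00399) and Ddit4 (1.30, SE 0.40, adjusted p = 0.0380), by edgeR. The call of Ddit4 was lost in 5 of 6 fits without 1 library (any but Sham-6h replicate 3), and Dusp1 was called in addition without Sham-6h replicate 2 and by DESeq2. Sgk1 was not among them. Its level of 39.3 to 43.0 FPKM in DEX-6h overlapped that of Sham-6h, with a log2 fold change of 0.30 (95% interval -0.12 to 0.71). The T cell sum was 33.7 to 48.3 FPKM in DEX-6h and 50.6 to 133 FPKM in Sham-6h, and the endothelial sum was 1453 to 1599 FPKM and 1202 to 1210 FPKM, and their part was not tested.
In DEX-24h against Sham-24h, 3 members rose as DEGs, where 0.992% of all genes were DEGs in that direction. They were Sgk1 (log2 fold change 1.53, SE 0.21, adjusted p = 0.000147), Dusp1 (1.48, SE 0.38, adjusted p = 0.0190) and Fkbp5 (1.48, SE 0.43, adjusted p = 0.0390), by edgeR. The number was 1 without replicate 1 of DEX-24h or of Sham-24h, and 6 without replicate 2 of Sham-24h, when Pdk4, Errfi1 and Ddit4 were added. The call of Fkbp5 was lost in 5 of 6 fits without 1 library (any but Sham-24h replicate 2), with an adjusted p of up to 0.209 in edgeR, and its log2 fold change was 2.24 without that rat. In the fit to these groups alone, Zbtb16 was called (adjusted p = 0.0400, edgeR) and Fkbp5 was not (adjusted p = 0.114, edgeR). Lymphocyte markers moved in the same comparison, 8 of 8 T cell markers and 5 of 7 B cell markers being lower in DEX-24h as DEGs. The share of all genes that were lower as DEGs in this comparison is not given here. The T cell sum was 6.72 to 14.99 FPKM in DEX-24h and 51.4 to 73.2 FPKM in Sham-24h, the B cell sum was 14.04 to 19.1 and 51.1 to 65.3 FPKM, and their part was not tested. The study's sequencing summary holds a share of unique tags, which it does not define. This share was lower in each taurocholate library than in each Sham and Con library, which cannot be told apart from taurocholate. It also separated the drug groups without overlap at 24 hours, being lowest in SAP-24h, higher in DEX-24h and highest in Emo-24h. The duplication share of the same summary separated these groups too, being highest in SAP-24h, lower in DEX-24h and lowest in Emo-24h. At 6 hours the share of unique tags was lower in DEX-6h than in SAP-6h without overlap. Within the DEX and emodin arms that share was higher at 24 hours than at 6 hours. The part of either share in the member values was not tested in any of these comparisons, that of Emo-24h with DEX-24h included.

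No member was called between the emodin groups and Sham. In Emo-6h against Sham-6h there were 0 DEGs among the 9 (0.477% of all genes), 1 member had an unadjusted p under 0.05 (22.6% of all genes) and DESeq2 called 0. In Emo-24h against Sham-24h there were 0 DEGs among the 9 and 0.0% among all genes, 3 members had an unadjusted p under 0.05 (3.0% of all genes) and DESeq2 called 0. Saline infusion against the sham operation gave 0 members at 6 hours (0.0% of all genes) and 0 at 24 hours (1.0% of all genes), by edgeR and by DESeq2, and 0 had an unadjusted p under 0.05 at either time (8.61% and 27.0% of all genes).

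Time after the operation was compared within each arm. From 6 to 24 hours no member was a DEG by edgeR or DESeq2 in Sham (0.257% of all genes), Con (0.00628%) or SAP (2.42%), with 0, 1 and 0 members at an unadjusted p under 0.05, against 20.4%, 10.5% and 24.8% of all genes. In the emodin arm 4 members fell as DEGs, where 3.08% of all genes were DEGs in that direction. Ddit4 went from 86.2, 99.1 and 92.0 FPKM in Emo-6h to 26.4, 20.7 and 63.8 FPKM in Emo-24h (log2 fold change -1.34, SE 0.40, adjusted p = 0.0120, edgeR). Tsc22d3 went from 353, 356 and 413 FPKM to 128, 130.1 and 233 FPKM (log2 fold change -1.22, SE 0.29, adjusted p = 0.00287, edgeR). Errfi1 (-1.17) and Dusp1 (-1.03) were the other 2, and Klf9 passed the adjusted p at -0.72. The number called was 1 without replicate 1 or replicate 2 of Emo-24h and 8 without replicate 3 of Emo-24h, when the log2 fold change of Ddit4 was -2.05. The neutrophil sum was 4375 to 6704 FPKM in Emo-24h and 1399 to 3847 FPKM in Emo-6h, the red blood cell sum 293 to 1348 and 3003 to 7391 FPKM, and the endothelial sum 889 to 1060 and 1195 to 1759 FPKM, and their part was not tested.
The interaction of emodin with time against SAP gave 0 members (1.68% of all genes), 1 with an unadjusted p under 0.05 (Errfi1, -1.19, 95% interval -2.18 to -0.20, adjusted p = 0.135, edgeR), against 23.4% of all genes. The interaction of SAP with time against Sham also gave 0 members (0.0314% of all genes), and 0 at an unadjusted p under 0.05, against 12.6% of all genes. DESeq2 called none in any of the 3 interactions.

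**Figure D3:**
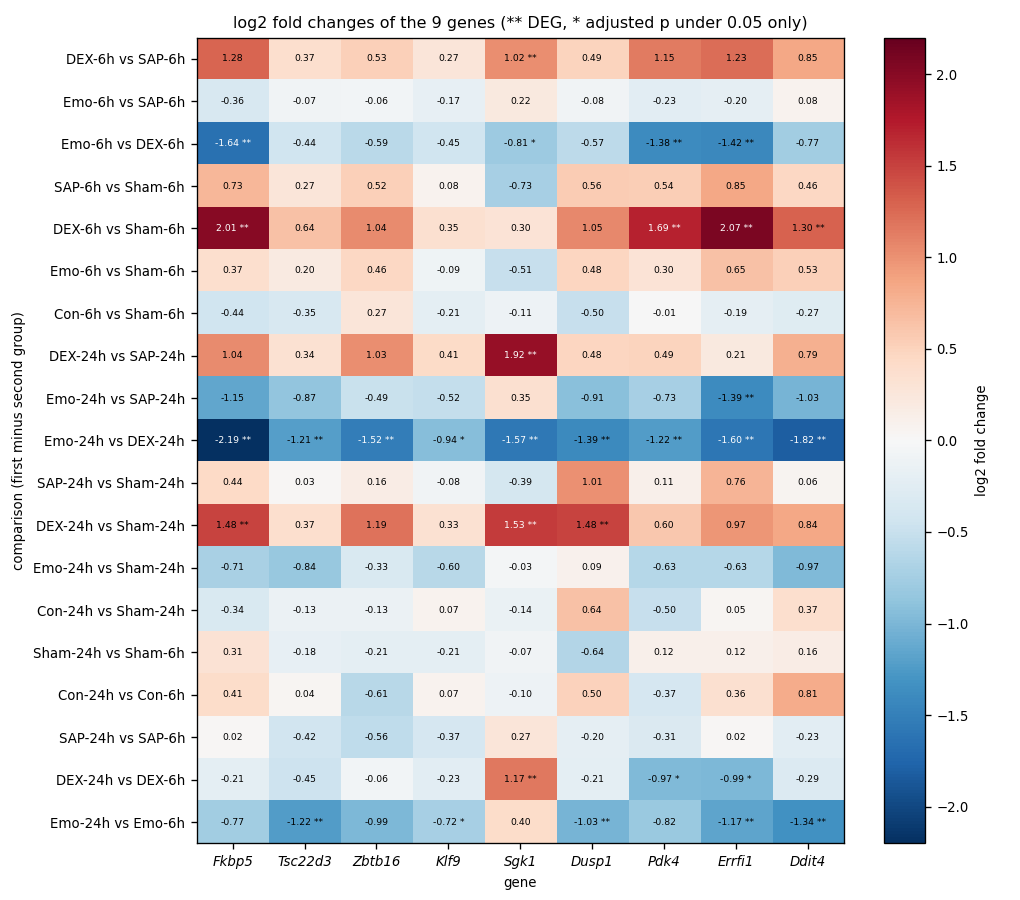
log2 fold change of the 9 genes (columns) in 19 comparisons (rows, first group minus second), with colour from blue (lower) to red (higher) and the value in each cell. A pair of asterisks marks a DEG and a single one an adjusted p under 0.05 below 2-fold; the row of Emo-24h vs DEX-24h carries 8 DEGs and Sgk1 is the DEG of both rows of DEX vs SAP.

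Rats of the same group differed from each other in these genes together. How many of all genes ordered the rats in the same way is not given here. In Sham-24h, replicate 2 was the highest of the 3 rats for 9 of 9 members. It had 109.8 FPKM of Fkbp5 where the others had 33.6 and 39.9 FPKM, and 130.1 FPKM of Ddit4 where the others had 41.0 and 44.0 FPKM. Its Fkbp5 level exceeded those of all 3 SAP-24h rats. The sum of neutrophil markers in this rat was 204 FPKM, where the others had 1347 and 9339 FPKM, and the sum of heart muscle markers was 11.8 FPKM, where they had 214 and 171 FPKM.
In Emo-24h, replicate 3 was the highest for 8 of 9 members, Sgk1 being the exception, and its sum of T cell markers was 18.2 FPKM, where the others had 73.1 and 64.1 FPKM. In Con-24h, replicate 3 was the highest for 7 members, with 82.7 FPKM of Fkbp5 where the others had 22.2 and 41.4 FPKM. In Sham-6h, replicate 3 was the lowest for 8 members. The part of cell content in these differences was not tested. On the log2(FPKM + 1) scale, the deviation from the group mean had a median over the 9 genes of 0.78 in replicate 2 of Sham-24h and of 0.56 in replicate 3 of Emo-24h, and of -0.54 in replicate 1 of Sham-24h and -0.41 in replicate 2 of Emo-24h, the rats with all 9 genes below it.

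**Figure D4:**
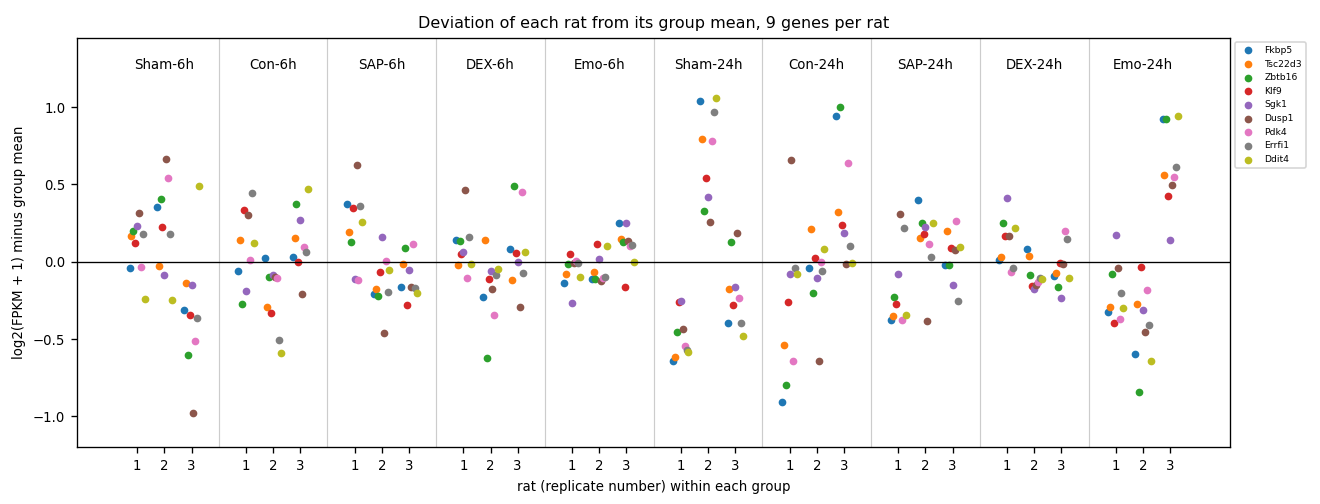
Deviation of each rat from its group mean on the log2(FPKM + 1) scale (vertical axis) for the 30 rats (horizontal axis, replicates 1 to 3 in each of 10 groups), with a coloured point per gene. All 9 points are above 0 in replicate 2 of Sham-24h and in replicate 3 of Emo-24h, and 0 of 9 are above it in replicate 1 of Sham-24h and in replicate 2 of Emo-24h.

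These joint deviations were described by correlations over the 30 libraries, which share groups, depth and cell content. After the group means were removed, all 36 pairs of members had a positive Pearson r, from 0.10 (Dusp1 and Ddit4) to 0.86 (Fkbp5 and Tsc22d3), with a median of 0.57. Fkbp5 and Pdk4 had 0.85 and Fkbp5 and Zbtb16 had 0.83. The same values for pairs of other genes are not given here. Dusp1 took part in the 5 lowest pairs. With the group means kept, r ranged from 0.23 to 0.89, and the highest pair was Fkbp5 and Pdk4.

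The gene with the most similar pattern to each member over the 30 libraries, by Pearson r of log2(FPKM + 1) among 12368 candidates, was Mark3 for Fkbp5 (r = 0.93), Glul for Tsc22d3 (0.90), Agfg2 for Zbtb16 (0.87), Tsc22d3 for Klf9 (0.88), Lpar1 for Sgk1 (0.85), Sik1 for Dusp1 (0.89), Fkbp5 for Pdk4 (0.89), and Hyal2 for both Errfi1 (0.94) and Ddit4 (0.90). Glul, which encodes glutamine synthetase, was also among the 3 nearest genes of Klf9 and Pdk4, and Cdkn1a, which encodes the cell cycle inhibitor p21, was second for Errfi1. These first places depended on the measure. With a pseudocount of 0.1 the first place for Fkbp5 went to Kcnmb4 (r = 0.93) and the other 8 were kept, and by Spearman's rho only those of Pdk4 and Ddit4 were kept, Mark3 being in place 7 for Fkbp5. The nearest genes of Sgk1 rested more on extreme libraries, and without the 2 libraries farthest from the median of Sgk1 its r with Lpar1 was 0.77 and with Tmtc1 0.69, from 0.84.

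A longer list of 30 other genes that glucocorticoids are known to induce was counted beside the members, 29 of which were tested. For the counts that follow, DEGs in either direction made up 0.515% of all genes in DEX-6h against SAP-6h, 3.73% in DEX-24h against SAP-24h, 3.19% in Emo-24h against SAP-24h and 5.0% in SAP-24h against Sham-24h, and 1.24% of all genes were lower as DEGs in Emo-24h against DEX-24h. In DEX-6h against SAP-6h 1 of the 29 rose and none fell, namely Rasd1, a small G protein (log2 fold change 1.23, SE 0.30, adjusted p = 0.0469, edgeR). The median of the list was 0.57, against -0.02 over all genes. In DEX-24h against SAP-24h 2 rose, Fam107a (1.41) and Rasd1 (1.17), and 1 fell, the metallothionein Mt1 (-2.75), while the median was 0.06. In Emo-24h against DEX-24h 8 of the 29 were lower and none higher, with Hif3a (-2.37), Cdkn1a (-1.74), Rasd1 (-1.73) and Fam107a (-1.71) at the lead. In Emo-24h against SAP-24h 9 fell and none rose, led by Mt2A (-4.25), Mt1 (-3.73), Cebpd (-2.04) and Cdkn1a (-1.72). In SAP-24h against Sham-24h 9 of the 29 rose, led by Mt2A (5.55) and Mt1 (3.88).
Of 16 tested inflammatory genes that glucocorticoids are known to repress, none was a DEG in DEX-6h against SAP-6h, and 6 fell and none rose in DEX-24h against SAP-24h. Il6 (-6.56), Sele (-3.49), Tlr2 (-2.79) and Ccl4 (-2.44) had the largest log2 fold changes. The neutrophil sum was lower in every DEX-24h rat than in every SAP-24h rat, as given above, and its part in these genes was not tested. Among 15 tested genes of the receptor itself, its chaperones and steroid enzymes, none was a DEG in DEX-6h against SAP-6h. In DEX-24h against SAP-24h 4 of the 15 fell and none rose, among them the receptor chaperones Stip1 (-1.59), Hsp90ab1 (-1.40) and Fkbp4 (-1.36).
Lists of genes that share a known trigger with single members were counted in the same way, against the same shares of all genes. Of 12 tested fasting and fatty acid oxidation genes, to which Pdk4 belongs by function, only the lipid droplet gene Plin2 was a DEG in DEX-6h and DEX-24h against SAP, and it fell (-1.22 and -1.40). Of 9 tested immediate early genes, with which Dusp1 is often induced, none was a DEG in DEX-6h against SAP-6h, and Egr2 (-1.45) and Junb (-1.36) fell in DEX-24h against SAP-24h. Of 13 tested hypoxia and amino acid stress genes, which include further conditions that induce Ddit4, none was a DEG at 6 hours and Adm alone rose at 24 hours (1.27). Of 15 tested circadian clock genes none was a DEG in DEX-6h against SAP-6h, and Npas2 fell in DEX-24h against SAP-24h (-1.17).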

How the data were processed

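Polyadenylated RNA of 30 lungs had been sequenced from directional libraries. The authors trimmed the reads, mapped them with TopHat2 (2 mismatches) to rat_ensembl_v6, discarded multi-mapped reads and deposited counts of reads per gene, without normalization. The deposited FPKM values were computed by the authors from the same reads and rounded to 2 decimals. The counting program is not given in the sources used here. Paralogs that share reads could lose counts when multi-mapped reads are discarded.

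Counts were analysed with edgeR 4.0.16 (limma 3.58.1, R 4.3.3): filterByExpr (minimum count 10, minimum total 15), TMM scaling and quasi-likelihood tests with a mean for each of 10 groups, fitted to all 30 libraries (20 residual degrees of freedom), with Benjamini-Hochberg adjustment over 15934 genes. A DEG had an adjusted p under 0.05 and at least a 2-fold change, the limits that the study's results name (its methods give the same fold limit with a P-value in place of the FDR). FPKM gave levels. Libraries held 16813949 to 34692306 reads on genes, and no libraries within a group were duplicates. The lowest was replicate 3 of SAP-6h, a rat in every comparison with that group, and the next lowest was replicate 3 of Con-24h with 23100017. Labels number the libraries 1 to 3 in each group, and the study's methods state that lung tissue of 3 rats was sequenced per group and time. Each library was therefore taken as 1 rat, so that p-values measure the spread between rats. Python 3.11.15, pandas 2.3.3 and matplotlib 3.10.9 were used for counts and plots.

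In counts simulated for DEX-6h vs SAP-6h over 15934 genes, DEGs were called for 21 of 63 genes changed by 1 on the log2 scale (33 passed the adjusted p), 51 of 66 changed by 1.5 and 56 of 71 changed by 2. The members and gene lists were chosen with earlier results of these data known. The rule named all members, up to 4 DEGs with the largest change per list and comparison, and the 3 nearest genes by Pearson r. Replicate numbers were shared between groups, but same-numbered rats deviated together (r above 0.1 for each number) only in DEX-24h vs DEX-6h (0.21, 0.22 and 0.23), which are different animals. Alternatives were RLE scaling, no low-count filter, only the libraries compared, DESeq2 1.42.0, a replicate block, no fold minimum and each library left out in turn. Promoter sequences are from RefSeq.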

Additional observations from a re-analysis of the deposited data

How the results depend on the processing

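Counts of called members moved by more than 1.5 times as follows. With only the libraries compared, 4 members instead of 1 were called in DEX-6h vs SAP-6h, 3 instead of 1 in DEX-24h vs SAP-24h and 0 instead of 1 in Emo-24h vs SAP-24h. With DESeq2 the number was 3 in DEX-6h vs SAP-6h, 3 in Emo-24h vs SAP-24h, 1 instead of 0 in SAP-24h vs Sham-24h and 2 instead of 1 in DEX-24h vs DEX-6h. RLE scaling also gave 2 in DEX-24h vs DEX-6h, and leaving out the fold minimum gave 3 there. Without 1 library, the range was 0 to 1 in DEX-6h vs SAP-6h, 0 to 1 in Emo-6h vs DEX-6h, 0 to 4 in Emo-24h vs SAP-24h, 4 to 9 in Emo-24h vs DEX-24h, 0 to 1 in SAP-24h vs Sham-24h, 1 to 6 in DEX-24h vs Sham-24h, 0 to 2 in DEX-24h vs DEX-6h and 1 to 8 in Emo-24h vs Emo-6h. Fits without 1 library hold fewer rats, and the cause of these changes in number was not tested. The share of all genes called under each alternative is not given here, so these counts cannot be set against it. With the replicate number as a block, Zbtb16 was called in addition in Emo-24h vs Emo-6h (log2 fold change -1.08, adjusted p = 0.0444, edgeR), and no other member call changed among 198. No low-count filter changed none of 198 member calls. No called member changed sign under any alternative tried. Each member had at least 328 reads in every library, and whether depth or the spread between rats limited the calls was not tested.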
